A study of Homo sapiens with 9 samples.

Results

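The genes described here are 35 genes of endothelial cells and blood vessel growth, measured in the A673 cell line, a human Ewing tumour line that carries the EWS-FLI1 fusion. They were taken from a list of 36 genes named for their known roles, though chosen with earlier results of these data known. The remaining gene is not analysed here. Every probe set annotated with one of them as its only gene was used, which gave 54 probe sets out of 19065 that name a single gene. A probe set is the group of short probes on an Affymetrix U133A array that together report one transcript.

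The series holds 9 arrays in 5 groups, all of A673 cells grown in medium with fetal calf serum. In 3 groups the cells took up 5 nM of small interfering RNA (siRNA) and were harvested after 48 hours. These were a control siRNA (2 arrays), EZH2 siRNA no.2 (2 arrays) and another EZH2 siRNA whose title carries no number, called the unnumbered EZH2 siRNA (1 array). In the other 2 groups the cells were kept for 24 hours in 0.01% DMSO (2 arrays) or in 100 nM trichostatin A, TSA (2 arrays). EZH2 methylates histone H3 as the enzyme of the Polycomb complex PRC2, TSA is an inhibitor of histone deacetylases, and DMSO is its solvent. The series title names a block of endothelial differentiation by EZH2, which makes these genes the ones to look at. The 2 arrays of a group were labelled biological replicates, and everything comes from a single cell line.

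Blood vessel growth is driven by vascular endothelial growth factors (VEGFs), which bind receptor tyrosine kinases on endothelial cells, and is refined by the angiopoietins, which bind TIE2. Mature endothelium is known by its junction proteins, its stored von Willebrand factor and its inducible leukocyte adhesion receptors. Tumour cells can supply the ligands of these systems without making the receptors. PRC2 silences developmental genes by methylating histone H3, and histone deacetylation also represses transcription.

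The members shown by sequence are VEGFB, whose signal was lower on every treated array than on every control array, and ENG and PGF, which each had 1 of 2 probe sets lowest on the DMSO arrays. Each line gives the 250 bases before a RefSeq transcription start (GRCh38.p14), 5′ to 3′ on the gene's strand. Capitals mark GGAA or its reverse complement TTCC, the core letters recognised by ETS factors such as the FLI1 part of the fusion.
VEGFB, chr11:64234334-64234583, plus strand: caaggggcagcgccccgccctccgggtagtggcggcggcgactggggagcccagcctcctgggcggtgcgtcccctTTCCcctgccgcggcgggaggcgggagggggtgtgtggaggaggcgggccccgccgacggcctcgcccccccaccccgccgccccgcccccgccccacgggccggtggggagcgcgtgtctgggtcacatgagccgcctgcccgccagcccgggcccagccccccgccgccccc
ENG, chr9:127854659-127854908, minus strand: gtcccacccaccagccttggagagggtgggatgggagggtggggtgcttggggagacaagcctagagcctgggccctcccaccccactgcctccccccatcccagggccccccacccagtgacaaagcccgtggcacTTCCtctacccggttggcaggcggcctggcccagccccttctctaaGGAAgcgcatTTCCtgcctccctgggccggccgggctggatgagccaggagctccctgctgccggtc
PGF, chr14:74955765-74956014, minus strand: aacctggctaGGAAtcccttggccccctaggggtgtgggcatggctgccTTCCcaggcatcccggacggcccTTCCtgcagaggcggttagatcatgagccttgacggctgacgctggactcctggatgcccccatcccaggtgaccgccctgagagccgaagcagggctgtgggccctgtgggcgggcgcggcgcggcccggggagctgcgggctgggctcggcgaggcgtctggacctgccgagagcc

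The VEGFB window held 30 CpG dinucleotides and 1 GGAA, the ENG window 7 and 3, and the PGF window, the first of 2 starts listed for the gene, 18 and 3. RefSeq windows were at hand for 23 of the member genes, 31 windows in all, in which several windows can belong to 1 gene. GGAA on either strand occurred in 29 of these 31 (93.5%) and in 92.7% of all 35116 windows, so the letters do not mark the members out. The doubled form GGAAGGAA, on either strand, occurred in 1 member window, at TAL1, and in 3.06% of all windows. These letter matches describe the sequence only.

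The trimmed mean signal of the arrays was 500.1 to 500.2, which a common scaling would fix, so it does not show them alike. Their medians ran from 125 to 159. Arrays of one group correlated at 0.957 to 0.969 across probe sets. EZH2 signal averaged 1151 ± 29.9 in control siRNA, 421 ± 213 in EZH2 siRNA no.2 (SD, n = 2 each) and 681 in the single array of the unnumbered siRNA. Of the 6 defining endothelial markers, PECAM1, CDH5, TEK, TIE1, KDR and VWF, 1 (PECAM1) had a probe set above the signal filter, against 5 of 5 measured Ewing tumour markers. Of the other cell type lists, 2 of 5 measured blood markers (HBB, CD3E) and 3 of 7 pericyte and smooth muscle markers (ACTA2, PDGFRB, RGS5) had one. So did 4 of 7 fibroblast markers (COL1A2, COL3A1, DCN, COL1A1). The summed signal of the endothelial defining markers was 177 to 200.1 in control siRNA, 219 to 223 in EZH2 siRNA no.2, 198 in the unnumbered siRNA, 178 to 215 in DMSO and 181 to 243 in TSA. That of the blood markers was 203 to 219 in control siRNA and 258 to 449 across the other groups. Summed fibroblast markers were 5388 to 6359 in control siRNA, 6614 to 7101 in EZH2 siRNA no.2 and 6300.1 in the unnumbered siRNA. They were 8340 to 8845 in DMSO and 5740.5 to 14212 in TSA, so both DMSO arrays lay above every siRNA array. COL1A2 made up most of this sum on every array. The part of the other cell types' markers in the results was not tested.

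A probe set was tested when its mean signal over the 9 arrays reached the 30th percentile of all probe sets, 53.3 on the MAS5 scale. Of the 54 member probe sets 19 (35.2%), belonging to 14 genes, were tested, against 71.7% of all one-gene probe sets. For 21 member genes no probe set reached that level, and their highest signal on any array was 93.7, for FLT1. The values came without detection calls, so a signal under the filter is called near background here and is not shown to be absent. On either side of the filter stood PROCR at a mean of 53.4 and LYVE1 at 54.0, just inside, and FLT1 222033_s_at at 52.5 and EDNRB 206701_x_at at 51.3, just outside.

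**Figure D1:**
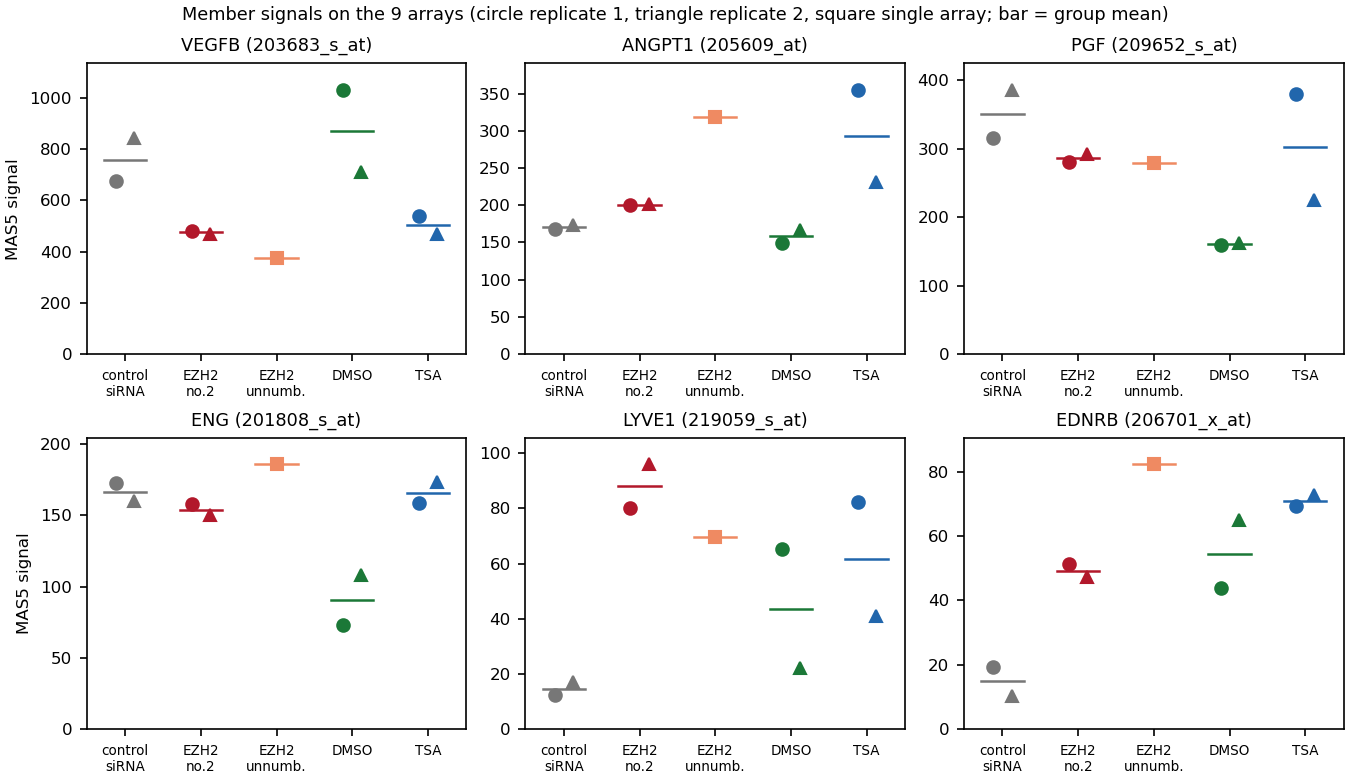
MAS5 signal (linear axes from 0) of 1 probe set each of VEGFB, ANGPT1, PGF, ENG, LYVE1 and EDNRB in the 5 groups. Circles are replicate 1, triangles replicate 2, squares the single array of the unnumbered siRNA and horizontal bars group means; the VEGFB controls lie at 675 to 1032 and its treated arrays at 375 to 538.

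The first question was whether these genes differ after EZH2 knockdown or TSA. No member probe set passed the adjusted test in any comparison. With limma over all 13665 tested probe sets and Benjamini-Hochberg adjustment, 0 of the 19 members and 0% of all probe sets were called for EZH2 siRNA no.2, the unnumbered siRNA, TSA, DMSO against control siRNA, no.2 and TSA averaged, and the difference of their effects. The lowest adjusted p of any probe set was 0.398, for the unnumbered siRNA. In simulated data of this size the same fit recovered 24.5% of 2-fold and 96.1% of 4-fold changes for EZH2 siRNA no.2. For TSA the shares were 24.8% and 94.9%. These folds are on the log2 scale of the fit, which understates fold changes of dim probe sets. Each simulation changed 200 probe sets at once, with folds of 2, 4, 8 and 16 mixed and no effect of replicate number. The shares hold for that mix and the simulated spread only. In that setting, changes near 2-fold were mostly not detected with these numbers of arrays. The 4-fold shares do not carry over to the signal of dim probe sets. Mean LYVE1 signal (219059_s_at) was 14.6 in control siRNA and 88.1 in EZH2 siRNA no.2, yet its log2 fold change was 1.51 (limma adjusted p = 0.920).

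Without adjustment, between 1 and 4 member probe sets passed p under 0.05 in each comparison, and each count is set beside the share of all tested probe sets that did. For EZH2 siRNA no.2 these were 1 higher (LYVE1) and 1 lower (VEGFB) of 19, where the background was 3.56% higher and 1.71% lower. LYVE1 had passed the signal filter only through its high arrays. Its mean was 44.2 over the 7 arrays without EZH2 siRNA no.2, 52.0 without the unnumbered siRNA and 51.8 without TSA. Its counts for no.2, for the unnumbered siRNA and for the average of no.2 and TSA are therefore not support. For TSA against DMSO they were 3 higher (ANGPT1 205609_at, ENG 201808_s_at, PGF 209652_s_at) and 1 lower (VEGFB), against 1.25% and 1.17%. For the unnumbered siRNA, ANGPT1 205609_at and LYVE1 were higher and VEGFB lower, against 2.81% and 2.2%. With no.2 and TSA averaged, the same 3 probe sets, LYVE1 among them, passed in the same directions, against 3.68% and 2.57%. For the difference of effects 0 members were higher and 1 (PGF 209652_s_at) lower, against 1.11% and 0.6%. Between the control groups, DMSO against control siRNA, 0 members were higher and 2 (ENG 201808_s_at, PGF 209652_s_at) lower, against 2.93% and 1.33%. EZH2 siRNA no.2, the unnumbered siRNA and DMSO are all set against the same control siRNA arrays, and TSA is set against DMSO, so these lists are not independent of each other. The background split turned with the scaling: with each array scaled to a common median, EZH2 siRNA no.2 gave 225 higher and 460 lower of all probe sets in place of 486 and 234. The other splits there were 94 and 210 for TSA (171 and 160), 224 and 423 for the unnumbered siRNA (384 and 300), 240 and 291 for DMSO against control siRNA (400 and 182), 209 and 642 for no.2 and TSA averaged (503 and 351), and 110 and 111 for the difference (152 and 82). After quantile normalisation they were 348 and 306 for no.2, 155 and 194 for TSA, 322 and 360 for the unnumbered siRNA, 337 and 222 for DMSO against control siRNA and 361 and 445 for the average. The median of all probe sets for no.2 moved from 0.07 to -0.06 with the common median.

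The median log2 fold change of the 19 members was 0.13 for EZH2 siRNA no.2 and 0.27 for TSA, beside 0.07 and 0.04 over all tested probe sets. Positive values were found for 10 of 19 members with no.2 and for 12 of 19 with TSA, where 58.2% and 55.3% of all probe sets were positive. The medians for the unnumbered siRNA and for DMSO against control siRNA were 0.14 and -0.03, beside 0.07 and 0.03. Under other settings the EZH2 siRNA no.2 median ran from -0.06 to 0.25 and the TSA median from 0.04 to 0.34.

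**Figure D2:**
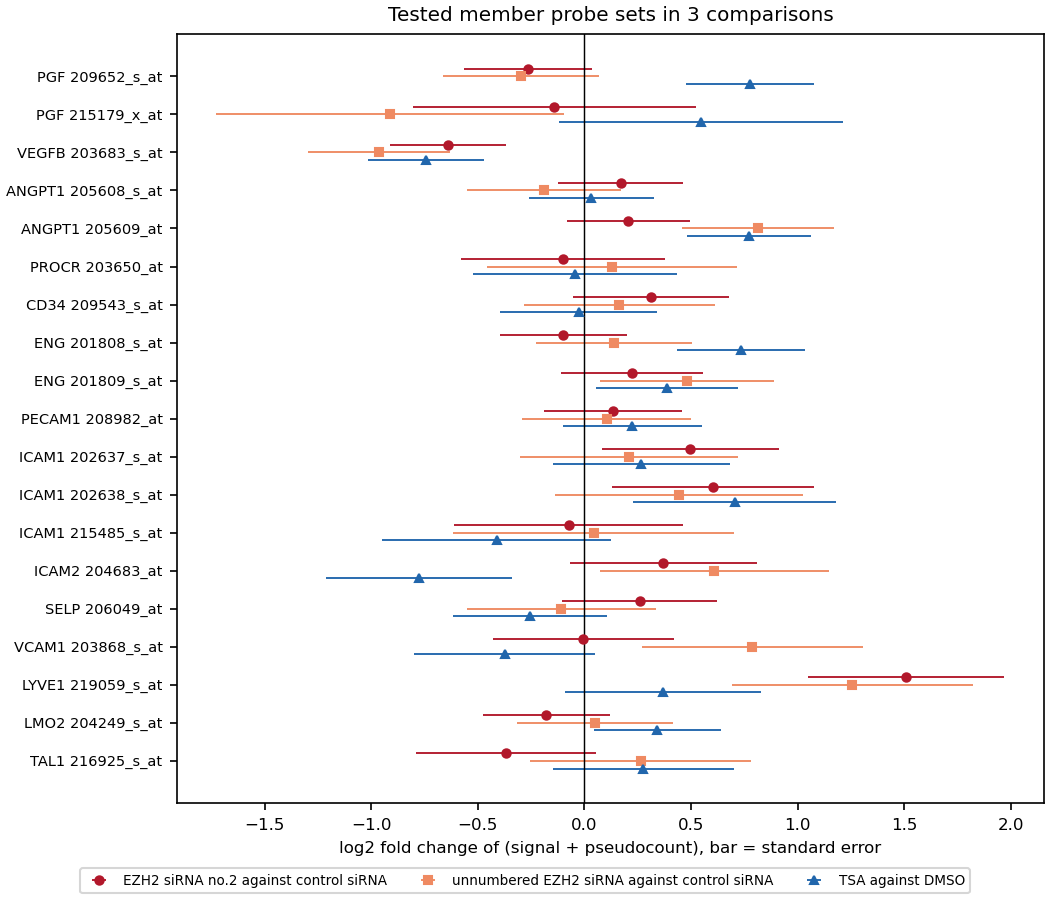
Log2 fold change (horizontal axis, log2(signal + 25.2) scale) of each of the 19 tested member probe sets for EZH2 siRNA no.2 and the unnumbered siRNA against control siRNA and for TSA against DMSO, with the standard error as bars. VEGFB lies at -0.64, -0.96 and -0.74, and LYVE1 at 1.51, 1.26 and 0.37.

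Among the VEGF ligands, VEGFB, a VEGFR1 ligand linked to fatty acid handling and vessel survival, was the only tested member that was lower on every treated array than on every control array. Its signal was 675 and 844 in control siRNA, 483 and 469 in EZH2 siRNA no.2 and 375 in the unnumbered siRNA. In DMSO it was 1032 and 712, and in TSA 538 and 469. That separation of 5 from 4 arrays held for 1.51% of all tested probe sets. In these bulk samples fewer cells of a type and less RNA per cell cannot be told apart. The log2 fold change was -0.64 for no.2 (SE 0.27, limma adjusted p = 0.920), -0.96 for the unnumbered siRNA (SE 0.33) and -0.74 for TSA (SE 0.27, limma adjusted p = 1.00). With no.2 and TSA averaged it was -0.69 (SE 0.19, limma adjusted p = 0.780), and -0.69 and -0.70 within replicates 1 and 2. Without replicate 2 of control siRNA the no.2 value was -0.48, and without replicate 1 of DMSO the TSA value was -0.48.

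PGF, placental growth factor, another VEGFR1 ligand, was reported by 2 probe sets that showed different patterns. On 209652_s_at the signal was 316 and 386 in control siRNA, 281 and 292 in EZH2 siRNA no.2 and 280 in the unnumbered siRNA. It was 159 and 163 in DMSO and 380 and 225 in TSA. The DMSO arrays were the lowest of the series, and TSA overlapped the siRNA groups. TSA was 0.78 above DMSO on the log2 scale (SE 0.30, limma adjusted p = 1.00), and DMSO was -1.01 from control siRNA (SE 0.30, limma adjusted p = 1.00). The TSA value was 0.43 without TSA replicate 1 and 1.12 without TSA replicate 2. The effect of no.2 minus that of TSA was -1.04 (SE 0.42, limma adjusted p = 1.00), and -0.69 without TSA replicate 1.

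The other PGF probe set, 215179_x_at, differed mainly between replicate numbers. Its signal was 995, 785, 566 and 959 on the replicate 2 arrays of control siRNA, EZH2 siRNA no.2, DMSO and TSA. On the replicate 1 arrays of those groups it was 271, 282, 254 and 333, and on the unnumbered siRNA array 267. With the unnumbered array counted among the replicate 1 arrays, the gap was 1.43 on the log2 scale (SE 0.18, limma adjusted p = 0.0114). Within each number DMSO was the lowest of the 4 groups, and TSA was above DMSO by 0.36 in replicate 1 and 0.73 in replicate 2 (log2), which did not pass the adjusted test without a block or with the 2 sets of arrays as one (limma adjusted p = 1.00 and 0.980). VEGFC, the lymphatic VEGF ligand, was near background, with group means from 31.2 in control siRNA to 81.9 in the unnumbered siRNA.

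The VEGF receptors were near background throughout. KDR (VEGFR2), the main signalling receptor of endothelium, had group means between 13.5 in control siRNA and 37.9 in DMSO. FLT4 (VEGFR3), the lymphatic receptor, lay between 26.3 and 44.4. FLT1 (VEGFR1), which binds VEGFB and PGF, had 3 probe sets, the highest of them from 34.8 in DMSO to 83.5 in EZH2 siRNA no.2. The other FLT1 probe sets had group means of 30.7 or less.

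In the angiopoietin-TIE system the ligand ANGPT1 was measured and the receptors were near background. ANGPT1, the agonist of TIE2 that steadies vessels, had a signal on 205609_at of 168 and 173 in control siRNA, 200.4 and 201 in EZH2 siRNA no.2 and 319 in the unnumbered siRNA. It was 150 and 166 in DMSO and 355 and 232 in TSA. All 5 treated arrays lay above all 4 control arrays, as for 2.14% of all tested probe sets, but no member showed this after quantile normalisation or after scaling to a common median. The log2 fold change was 0.21 for no.2, 0.81 for the unnumbered siRNA (SE 0.35, limma adjusted p = 0.952) and 0.77 for TSA (SE 0.29, limma adjusted p = 1.00). Replicate 1 alone gave 1.12 for TSA and replicate 2 alone 0.42. Leaving out TSA replicate 1 gave 0.49. The second ANGPT1 probe set, 205608_s_at, gave 0.17, -0.19 and 0.03 for the same comparisons, with all arrays between 202 and 302.

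ANGPT2, the context-dependent antagonist, had group means of at most 18.6 on either probe set. TEK, the TIE2 receptor, reached a group mean of 43.9 in TSA, from arrays at 16.5 and 71.3. Its other probe set and that of TIE1, the orphan co-receptor, stayed at group means of 22.4 and 4.78 or less.

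Both endothelin genes analysed were near background. EDN1, the vasoconstrictor peptide, had group means of 7.29 to 18.4. EDNRB, the endothelin B receptor, had a signal on 206701_x_at of 19.4 and 10.3 in control siRNA, 51.2 and 47.2 in EZH2 siRNA no.2, 82.3 in the unnumbered siRNA, 44.0 and 65.1 in DMSO and 69.3 and 72.8 in TSA. The 2 control siRNA arrays were the lowest, the DMSO arrays overlapped EZH2 siRNA no.2, and the unnumbered siRNA was the highest. On 204271_s_at control siRNA was likewise lowest, at 7.97 and 26.1, with the other arrays at 40.5 to 69.1. The share of all probe sets with control siRNA lowest in this way was not counted. In the fit without a filter, 206701_x_at gave a log2 fold change of 0.90 for no.2 (SE 0.30, limma adjusted p = 0.913) and 0.99 for DMSO against control siRNA (SE 0.30, limma adjusted p = 1.00). The summed blood markers were also lowest in control siRNA, at 203 to 219, and their part was not tested. The third EDNRB probe set had group means of 8.45 to 13.6.

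**Figure D3:**
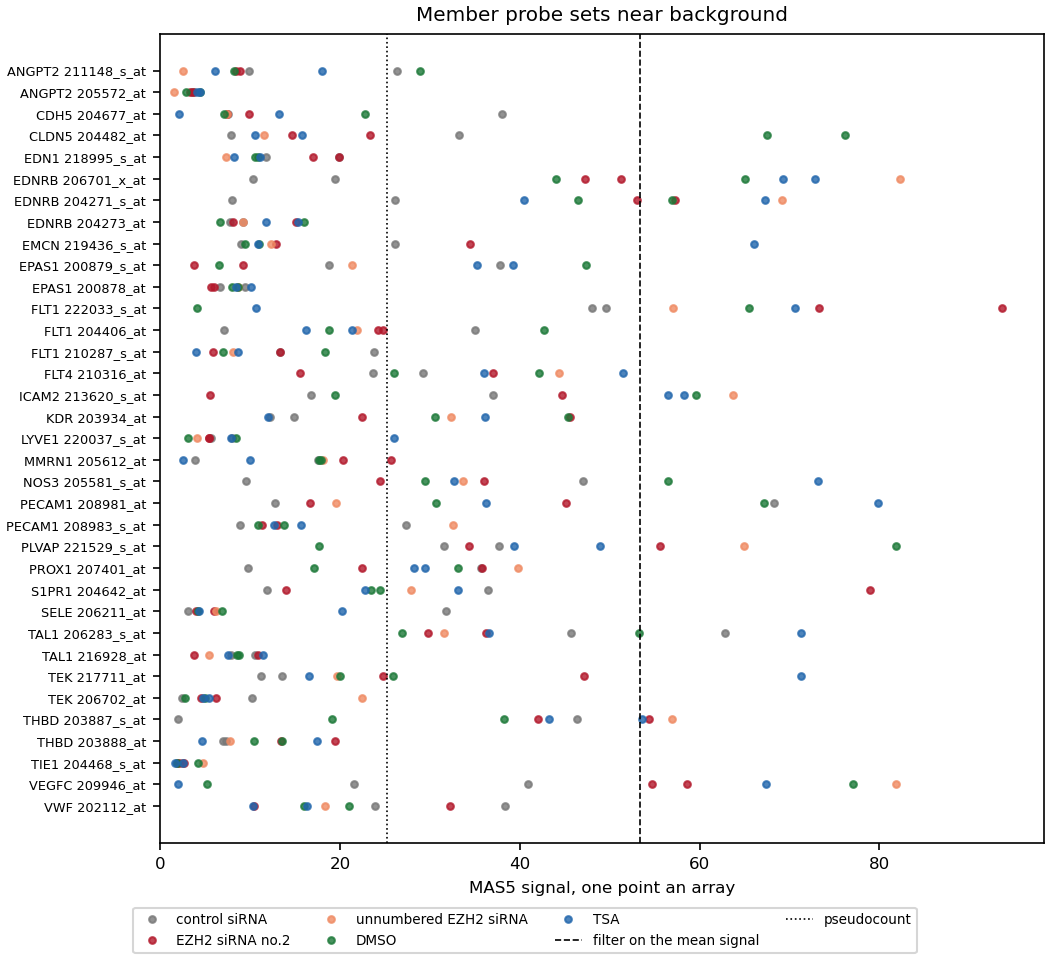
MAS5 signal (linear axis) of the 35 member probe sets near background, 1 point an array, coloured by group, with the filter on the mean (53.3) dashed and the pseudocount (25.2) dotted. No point exceeds 93.7, and 9 probe sets have every array under the pseudocount.

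Of the junction and surface proteins, ENG, CD34 and PECAM1 were above the filter. ENG, endoglin, a co-receptor of TGF-beta family ligands on endothelium, had a signal on 201808_s_at of 173 and 160 in control siRNA, 158 and 150 in EZH2 siRNA no.2 and 186 in the unnumbered siRNA. In DMSO it was 73.3 and 108, and in TSA 158 and 173. On this probe set the DMSO arrays stood alone, and TSA lay among the siRNA arrays. TSA was 0.73 above DMSO (log2, SE 0.30, limma adjusted p = 1.00), and DMSO was -0.74 from control siRNA (SE 0.30, limma adjusted p = 1.00). The second ENG probe set, 201809_s_at, did not show this: DMSO read 358 and 173, on either side of the control siRNA arrays, and DMSO against control siRNA was -0.08. It gave 0.22 for no.2 and 0.39 for TSA.

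CD34, a sialomucin of endothelial and haematopoietic progenitor cells, read 86.8 and 103 in control siRNA, 94.9 and 159 in EZH2 siRNA no.2 and 109 in the unnumbered siRNA. DMSO read 117 and 131 and TSA 87.8 and 164, so that EZH2 siRNA no.2 overlapped control siRNA and TSA spanned DMSO. PECAM1, the CD31 adhesion molecule of endothelial junctions, ranged from 89.9 to 138 on 208982_at, with log2 fold changes of 0.13 for no.2 and 0.22 for TSA (SE 0.32 each). Its other probe sets were near background.

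The endothelial cadherin CDH5 had group means of 7.44 to 22.8, the sialomucin EMCN 10.2 to 38.4, and PLVAP, of fenestrated capillaries, 34.6 to 64.9. CLDN5, a tight junction claudin, read 76.2 and 67.5 in DMSO and 7.89 to 33.2 on the other 7 arrays. In the fit without a filter its log2 fold change was -1.34 for TSA against DMSO (SE 0.31, limma adjusted p = 1.00) and 1.14 for DMSO against control siRNA (SE 0.31). As with ENG 201808_s_at and PGF 209652_s_at, which were lower in DMSO, the DMSO arrays and not the TSA arrays stood apart from the siRNA arrays. The share of all probe sets with both DMSO arrays lowest or highest was not counted, so a shared DMSO pattern is not shown. On the other probe sets of ENG and PGF, DMSO overlapped control siRNA. The DMSO and siRNA groups differ in time (24 and 48 hours) and in siRNA uptake, whose part in these values was not tested. The fibroblast marker sum was also higher on both DMSO arrays, at 8340 and 8845, than on every siRNA array, at 5388 to 7101, and its part in these values was not tested.

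Leukocyte adhesion receptors were the role with most tested probe sets, 6 from 4 genes, and 0 passed even an unadjusted p under 0.05 in a comparison of treatment groups. ICAM1, the integrin ligand induced by inflammatory cytokines, read 89.6 and 203 in control siRNA on 202637_s_at, 140 and 290.3 in EZH2 siRNA no.2, 162 in the unnumbered siRNA, 191 and 142 in DMSO and 170.4 and 242 in TSA. The groups overlapped. Its log2 fold changes for TSA differed in sign between probe sets, at 0.27, 0.70 and -0.41. ICAM2, a constitutive endothelial integrin ligand, gave 0.37 for no.2 and -0.78 for TSA on 204683_at (SE 0.44 each). The TSA arrays there read 21.8 and 79.0. Its other probe set, 213620_s_at, was near background and did not show a decrease. It read 19.4 and 59.6 in DMSO and 56.5 and 58.3 in TSA.

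VCAM1, which binds leukocyte integrin alpha4, also ran with the replicate number, at 111 to 142 on the replicate 2 arrays and 191 to 302 on the other 5 (log2 gap -0.73, SE 0.19, limma adjusted p = 0.0828). SELP, P-selectin, ranged from 128 to 264. SELE, E-selectin, was near background, with group means of 4.92 to 17.4.

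**Figure D4:**
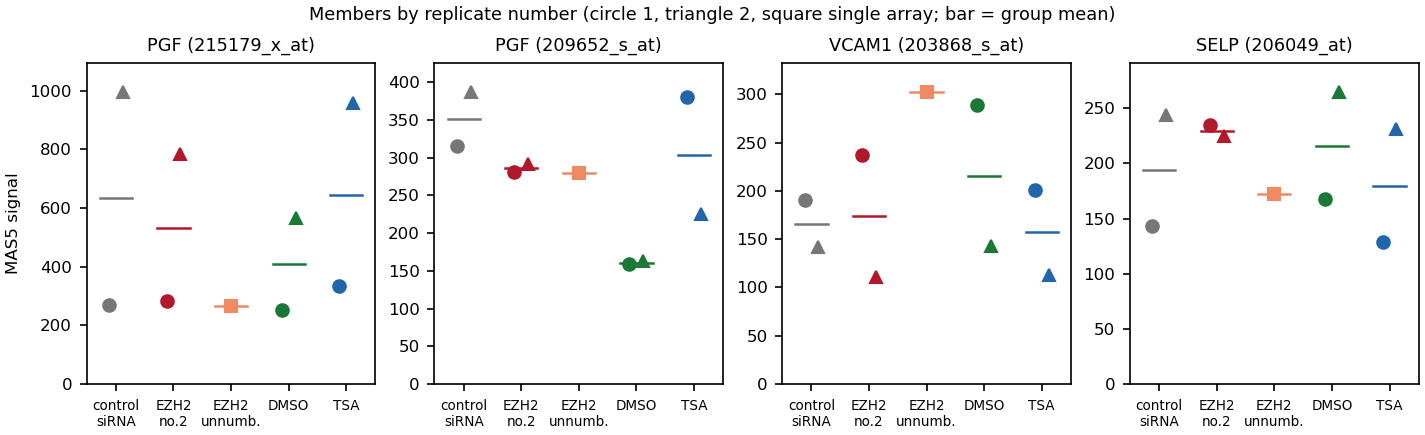
MAS5 signal (linear axes from 0) of both PGF probe sets, VCAM1 and SELP by group, with circles for replicate 1, triangles for replicate 2, squares for the single array and bars for group means. PGF 215179_x_at lies at 566 to 995 in replicate 2 and at 254 to 333 on the other 5 arrays, while PGF 209652_s_at overlaps.

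Over all tested probe sets, the replicate 2 arrays were called higher in 0.754% and lower in 0.688% (limma, adjusted p under 0.05). Among the 19 members these counts were 1 (PGF 215179_x_at) and 0. All replicate 2 arrays lay above the other 5 in 4.22% of probe sets and below in 2.93%, and in 1 member each way (PGF 215179_x_at and VCAM1). The 18 hybridisation control probe sets averaged 10.43 to 10.53 (log2 signal) on the replicate 2 arrays and 9.80 to 10.16 on the other 5. Their part in the gap was not tested.

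Of the haemostasis and vessel tone genes, PROCR, the endothelial protein C receptor, was the only one above the filter. It read 44.4 and 62.6 in control siRNA, 30.3 and 70.3 in EZH2 siRNA no.2, 60.3 in the unnumbered siRNA, 68.5 and 37.6 in DMSO and 77.5 and 28.7 in TSA, with all groups overlapping. VWF, the stored clotting glycoprotein of endothelium, had group means of 13.3 to 31.1. NOS3, the endothelial nitric oxide synthase, had 28.3 to 52.9, and S1PR1, a sphingosine 1-phosphate receptor, 24.0 to 46.5. THBD, thrombomodulin, reached 57.0 and MMRN1, a platelet and endothelial multimerin, 23.0.

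Among the transcription factors, LMO2, a haematopoietic and endothelial LIM-domain adaptor, was well above background. Its signal was 1838 and 2181 in control siRNA, 2064 and 1511 in EZH2 siRNA no.2, 2070 in the unnumbered siRNA, 2507 and 1990 in DMSO and 3698 and 2175 in TSA. Groups overlapped, and the log2 fold changes were -0.18 for no.2 and 0.34 for TSA (SE 0.30 each). TAL1, its DNA-binding partner in blood and endothelial progenitors, read 79.4 and 90.3 in control siRNA on 216925_s_at and 53.7 and 66.6 in EZH2 siRNA no.2 (log2 fold change -0.37, SE 0.42). The unnumbered siRNA, at 107, lay above both controls (0.26), and DMSO read 29.7 and 71.4 and TSA 88.3 and 43.3. The other TAL1 probe sets were near background. On 206283_s_at the unnumbered siRNA, at 31.6, lay below both controls, at 62.8 and 45.7, as did EZH2 siRNA no.2, at 36.3 and 29.8. EPAS1 (HIF-2 alpha) had group means of 5.76 to 37.2 and PROX1, the lymphatic regulator, 22.7 to 39.8.

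LYVE1, the hyaluronan receptor of lymphatic endothelium, had a low signal that differed between groups, and was tested only because its high arrays raised its mean just over the filter. On 219059_s_at it read 12.2 and 17.0 in control siRNA, 80.3 and 95.9 in EZH2 siRNA no.2 and 69.7 in the unnumbered siRNA. DMSO read 65.3 and 22.0 and TSA 82.5 and 40.9. The control siRNA arrays were below the pseudocount of 25.2, and the DMSO arrays overlapped TSA. The log2 fold change was 1.51 for no.2 (SE 0.46, limma adjusted p = 0.920), and 0.78 to 2.23 over the settings tried. It was 1.26 for the unnumbered siRNA (SE 0.56, limma adjusted p = 0.952), and with the replicate 2 arrays as a block its unadjusted p was no longer under 0.05. It was 0.37 for TSA, while DMSO was 0.72 above control siRNA. As for EDNRB, the blood marker sum was lowest in the same control siRNA arrays, though neither HBB nor CD3E alone set them apart. The part of that sum was not tested. The other LYVE1 probe set stayed between 3.07 and 26.0.

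In pairs of arrays, non-overlap was common. For EZH2 siRNA no.2 against control siRNA, both arrays lay above both controls for 2 of 19 members (ANGPT1 205609_at, LYVE1) and below for 4 (ENG 201808_s_at, PGF 209652_s_at, TAL1, VEGFB), beside 22.4% and 12.8% of all probe sets. For TSA against DMSO it was 5 above (ANGPT1 205609_at, ENG 201808_s_at, ICAM1 202638_s_at, PECAM1, PGF 209652_s_at) and 3 below (ICAM1 215485_s_at, ICAM2, VEGFB), beside 16.1% and 12.1%.

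A further list of 67 angiogenesis pathway genes that are not members had 47 genes with 82 tested probe sets. None passed the adjusted limma test in the comparisons above. At an unadjusted p under 0.05, 3 were higher and 1 lower for EZH2 siRNA no.2, and 3 higher and 0 lower for TSA. Over all tested probe sets the shares were 3.56% and 1.71% for no.2 and 1.25% and 1.17% for TSA, so for no.2 the list's counts were near the background. The medians were 0.06 and 0.17, beside 0.07 and 0.04. For no.2 the higher ones were NRP1, a VEGF co-receptor (212298_at, log2 fold change 1.18, SE 0.31), F2R, the thrombin receptor (0.79, SE 0.24), and TFPI, the tissue factor pathway inhibitor (209676_at, 1.19, SE 0.50). The lower one was CAV2, a caveolin (213426_s_at, -0.87, SE 0.32). For TSA they were JAG1, a Notch ligand (216268_s_at, 0.91, SE 0.37), ADM, the vasodilator adrenomedullin (0.66, SE 0.30), and F2R (0.55, SE 0.24). DMSO was -0.66 from control siRNA for that JAG1 probe set, -0.62 for ADM and 0.09 for F2R. On the other JAG1 probe sets TSA overlapped DMSO. On 209098_s_at DMSO read 266 and 332 and TSA 328 and 401. On 209099_x_at DMSO read 880 and 1601 and TSA 1598.5 and 1911.

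F2R read 819 and 1056 in control siRNA, 1535 and 1735 in EZH2 siRNA no.2, 1873 in the unnumbered siRNA, 1013 and 976 in DMSO and 1552 and 1384 in TSA. All 5 treated arrays were above all 4 control arrays, as for 2.14% of all tested probe sets. F2R was named here for its small p, so this separation is not further support. Other probe sets of these genes gave smaller values for no.2, at 0.46 for NRP1, -0.35 and -0.20 for CAV2 and 0.47 to 0.84 for TFPI.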

How the data were processed

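RNA from A673 cells was hybridised to U133A arrays, 9 in 5 groups. The authors deposited MAS5 signal, a linear intensity, per the submitters' processing notes; the scaling target and version are not given in the sources used here. Of 22283 probe sets, 68 are controls, 19065 name one gene, 1043 several and 2107 none, and only the one-gene probe sets were tested. Signals were turned into log2(signal + 25.2), the 20th percentile of all values, so fold changes of dim probe sets are understated. Probe sets with a mean under the 30th percentile (53.3) were set apart, which left 13665.

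Group means over all 9 arrays were fitted with limma 3.58.1 in R 4.3.3 (eBayes with trend, 4 residual and 7.01 prior degrees of freedom). Tests were two-sided, with Benjamini-Hochberg adjustment over all 13665 and a threshold of 0.05. With its 1 array, the unnumbered siRNA was given the spread of the other groups. The number of arrays limits the precision. The fit was tested on simulated data, 20 times with 200 changed probe sets of mixed folds each, with folds counted on its log2 scale.

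The members, lists and tests were chosen with earlier results of these data known. Every member was named, with signals per array for tested probe sets with an unadjusted p under 0.05 in any comparison of treatment groups and for at least 1 tested member of each role. Of the other pathway genes, those with such a p for EZH2 siRNA no.2 or TSA were named. Alternatives were other pseudocounts, filters and scalings, 1 probe set a gene, fewer groups, a replicate block and leaving out single arrays. Promoter windows are RefSeq's.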

Additional observations from a re-analysis of the deposited data

How the results depend on the processing

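The adjusted count of member calls was 0 under every setting tried, and the probe sets of VEGFB, LYVE1, ANGPT1, ENG and PGF with an unadjusted p under 0.05 kept their sign in those comparisons; the signs of the other members were not followed. For EZH2 siRNA no.2 the unadjusted count (2 of 19, beside 720 of all 13665) was 4 of 54 without a filter, beside 1019 of 19065. It was 1 with the filter at the 50th percentile, beside 548 of 9924, and 1 with a common median, beside 685 of 13666. The median of 0.13 was 0.052 without a filter, -0.0063 with the filter at the 50th percentile, -0.058 with a common median and 0.012 after quantile normalisation. Without a filter the unadjusted counts were 5 for the unnumbered siRNA (3), 5 for DMSO against control siRNA (2) and 3 for the difference of effects (1). Over all 19065 probe sets the counts were 1038, 864 and 493. The median without a filter was 0.083 for TSA and 0.095 for no.2 and TSA averaged (0.14). That average was 0.10 with the pseudocount at the 40th percentile, 0.20 with the filter at the 50th and 0.090 after quantile normalisation. With a common median it was 0.025, and its unadjusted count (3) was 1, beside 851 of all 13666. The unnumbered siRNA count was 1 after quantile normalisation, with a common median, or with only the arrays of its groups. Over all probe sets it was 682, 647 and 709 there. The last setting gave 1 for DMSO against control siRNA too, beside 698. With 1 probe set a gene the unadjusted counts were 1 for TSA (4), 0 for DMSO against control siRNA and 0 for the difference. Over all 9100 probe sets they were 238, 418 and 163. The medians in that setting were 0.091 for the average and 0.12 for the difference (-0.06). The count of members with all treated arrays above all controls (1) was 0 after quantile normalisation and 0 with a common median, settings chosen after seeing the data; the count below stayed at 1. The cause was not tested for any of these.

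Leaving out each array of a pair in turn left 1 array in its group, so only medians are given. The medians ran from -0.021 to 0.25 for no.2, 0.042 to 0.24 for TSA, 0.048 to 0.23 for the average and -0.25 to 0.23 for the difference. A group left with 1 array was assumed to vary like the others.

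With the replicate block, the member counts of calls were as without it, 0 adjusted and 2 unadjusted for no.2, 0 and 4 for TSA. Over all 13665 probe sets the unadjusted counts rose, from 720 to 1182 for no.2 and from 331 to 600 for TSA. With the replicate 2 arrays as a block, the unadjusted member count for the unnumbered siRNA (3) was 2, without LYVE1. Over all probe sets it rose from 684 to 1115. The replicate numbers were not shown to pair the arrays, since there are only 2 numbers. Deviations from the group means correlated at 0.098 to 0.41 between groups, over 6 correlations.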
